A study of Mus musculus with 8 samples.

Results

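The cells described here are KL cells of mouse bone marrow that held transcripts of both Klf1 and Gata1 but none of Ermap and little of Car1 or Pf4. They were chosen by their raw unique molecular identifier (UMI, 1 captured transcript) counts: at least 1 UMI of Klf1 and of Gata1, no UMI of Ermap, and at most 2 UMIs of Car1 and of Pf4. The rule selected 546 of the 29891 cells in the data set (1.83%), and they are called gated cells below. Because the gate was built from measured counts, the levels of these 5 genes are a description and support nothing, and differences between gated cells and other cells are given without a test.

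KL cells carry c-Kit (CD117) and lack CD3, CD4, CD8, CD45R, CD11b, TER119 and GR1 on their surface, so late erythroid cells, which carry TER119, should have been removed by the sort. All animals were female B6 mice of 3 to 4 months with no engineered allele named. SPF mice stayed in a specific pathogen free facility, and CVT mice were SPF mice moved to a conventional facility and co-housed there for 1 month with mice of that facility. By the sample titles each housing group had 10 mice, combined into 4 pools of 2 or 3 mice. The paper's figure legend gives 8 mice per group for these pools, and the titles are followed here. A pool is the replicate and single mice cannot be separated. Pools 1, 2, 7 and 8 were SPF and pools 3, 4, 5 and 6 were CVT, by matching the number that ends a cell's name to the number in the sample description. Mice 1 to 10 were in pools 1 to 4 and mice 11 to 20 in pools 5 to 8; the labels do not call these sets batches.

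Red cell precursors form when bipotent progenitors of the megakaryocyte and erythroid lineages turn on the transcription factors Gata1 and Klf1, while Gata2, which acts earlier, declines. Klf1 drives genes for heme synthesis, the red cell membrane and globin. Gata1 and Gata2 also act in megakaryocytes, eosinophils, basophils and mast cells, so Gata1 alone does not mark an erythroid cell. Car1 encodes a carbonic anhydrase and Ermap a membrane protein of red cells, and Pf4 encodes a chemokine stored in platelet granules. Csrp3 encodes a LIM domain protein best known from striated muscle, and Tspo2 a membrane protein of erythroid cells that binds cholesterol.

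The stretches of 250 bases upstream of the start of the 4 marker genes are printed because the factors used in the gate are known to bind GATA and CACCC motifs. They are from RefSeq (GRCm38.p6), matched by symbol, while the authors' processing notes name mm9, so positions apply to GRCm38.p6 only. All 4 genes matched, and Csrp3 has a second entry that is not printed. Capitals mark CACCC, and the GATA form, which was GATA with A or T before it and A or G after it. Both were searched on both strands, and adjacent matches run together.
Klf1, chr8:84901732-84901981, plus strand: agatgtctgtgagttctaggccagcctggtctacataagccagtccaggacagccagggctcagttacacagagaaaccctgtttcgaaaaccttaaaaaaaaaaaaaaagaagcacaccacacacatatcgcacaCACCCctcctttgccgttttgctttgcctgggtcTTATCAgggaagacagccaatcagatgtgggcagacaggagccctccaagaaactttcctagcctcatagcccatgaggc
Gata1, chrX:7967911-7968160, minus strand: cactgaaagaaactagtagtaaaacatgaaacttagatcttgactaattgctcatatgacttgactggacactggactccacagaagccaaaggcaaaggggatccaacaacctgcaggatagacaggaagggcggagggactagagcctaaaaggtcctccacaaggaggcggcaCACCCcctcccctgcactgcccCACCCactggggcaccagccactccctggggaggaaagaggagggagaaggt
Csrp3, chr7:48848052-48848301, minus strand: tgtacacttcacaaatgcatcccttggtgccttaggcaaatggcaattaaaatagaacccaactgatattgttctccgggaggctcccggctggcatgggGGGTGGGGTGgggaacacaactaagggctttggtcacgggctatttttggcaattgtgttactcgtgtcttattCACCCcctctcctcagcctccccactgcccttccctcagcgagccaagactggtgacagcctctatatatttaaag
Tspo2, chr17:48451502-48451751, minus strand: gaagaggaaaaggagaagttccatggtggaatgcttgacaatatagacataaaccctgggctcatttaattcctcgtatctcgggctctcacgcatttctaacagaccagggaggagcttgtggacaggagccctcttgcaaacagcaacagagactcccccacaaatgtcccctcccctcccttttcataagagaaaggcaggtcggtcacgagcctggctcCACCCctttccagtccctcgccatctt
The Klf1 stretch held 1 GATA and 1 CACCC match, at 80 to 75 and 114 to 110 bases before the start. The Gata1 stretch held 2 CACCC matches, that of Csrp3 3 and that of Tspo2 1, and none of these 3 held the GATA form. The second Csrp3 entry held 2 GATA forms and no CACCC. Among 32851 stretches of the same length in the RefSeq table, 26.5% held a GATA form and 52.0% a CACCC, so a match is a description and not a bound site.

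Most gated cells met the gate by single transcripts. Klf1 was at 1 UMI in 371 of the 546 cells and Gata1 at 1 UMI in 387, and both were at 1 in 262. Only 50 cells had at least 2 UMIs of both genes. Car1 was at 0 in 293 cells, at 1 in 156 and at 2 in 97. Just outside the gate, 89 cells that met every other condition had 3 Car1 UMIs, 25 had 1 Ermap UMI and 15 had 3 Pf4 UMIs.

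The gated cells were shallow, which bears on a gate made of absences. Their median was 7082.5 UMIs per cell (2861 to 26798) with medians of 6411 to 8175 by pool, and their summed counts ranged from 309222 to 788051 UMIs per pool. Other classes served for comparison. Committed erythroid cells had Klf1, Gata1 and Ermap each at 1 UMI or more, over 2 Car1 UMIs and at most 2 of Pf4 (3147 cells, median 22008 UMIs). Gata2 Apoe cells had at least 1 UMI of each of those genes, no Klf1 or Gata1, and at most 2 UMIs of Pf4 and of Mpo (2215 cells, median 5673 UMIs). Ermap and Car1 were not limited in Gata2 Apoe cells, of which 4.42% held an Ermap UMI. Their Car1 was at 1.88 to 4.27 UMIs per cell by pool, against 0.425 to 0.8 in gated cells. Pf4 cells had 3 or more Pf4 UMIs (1302 cells, median 8875 UMIs).

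Free RNA in the droplets was gauged in 4747 cells with at least 10 UMIs each of Mpo and Elane, neutrophil granule enzymes whose cells should not use Klf1. Klf1 had a UMI in 9.73% of these cells, Gata1 in 5.77% and both in 1.16% (95% Wilson interval 0.891% to 1.505%, counting error only), at a median depth of 16403 UMIs. Of them 20 (0.421%) fell within the gate, compared with 2.09% of all other cells. Some gated cells may therefore hold Klf1 or Gata1 as free RNA, and how many was not tested. When every cell was thinned to 2759 UMIs, the depth of the shallowest cell, the rule chose 239 cells, of which 125 had been gated at full depth and 24 were committed cells. Of the 546 gated cells, 21 shared a barcode with a cell of another pool, and none with a gated cell of another pool.

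The marker check went only in part with the label of early erythroid cells. Csrp3 was at 315, 180, 437 and 241 CPM, the UMIs of a gene per 1000000 UMIs of the cells of a pool, in SPF pools 1, 2, 7 and 8 and at 201, 283, 295 and 299 CPM in CVT pools 3 to 6. Its mean of 281 ± 79.3 CPM (SD, n = 8 pools) was above the 164 CPM of Gata2 Apoe cells and the 43.4 CPM of committed cells in 8 of 8 pools. Tspo2 was at 35.3, 41.9, 58.2 and 23.7 CPM in the SPF pools and at 27.7, 38.1, 57.4 and 46.1 CPM in the CVT pools. At a mean of 41.0 ± 12.6 CPM (SD, n = 8) Tspo2 was below committed cells (163 CPM) in 8 of 8 pools and below Gata2 Apoe cells (63.5 CPM) in 7. Csrp3 had a UMI in 48.0% of gated cells and 8.32% of the granule cells, and Tspo2 in 20.3% and 6.49%. In committed cells, which are deeper, Tspo2 had a UMI in 92.0%. One marker was thus highest in the gated cells and the other was not raised over the cells that lack Klf1 and Gata1. Ermap and Car1 were limited in gated cells but not in Gata2 Apoe cells, which bears on Tspo2 and other erythroid genes. The part of this limit in the comparison was not tested.

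Genes of red cell function were low in gated cells. Relative to committed cells, 11 of the 14 measured genes of the red cell membrane and carbonic anhydrase list were lower in 8 of 8 pools, with a median difference of -2.59 on the log2 scale (CPM plus 1). A gene counted as measured when its mean was at least 20 CPM in 1 of the 3 classes (5847 genes, whose median difference was near 0). Among those 5847 genes, 24.7% were lower and 25.4% were higher than in committed cells in all pools, and since the gate fixed this contrast nothing is read from the counts. Smim1, Rhag and Add2, which encode membrane or membrane skeleton proteins, were at 11.6, 1.76 and 2.32 CPM against 142, 48.5 and 56.5 CPM. Relative to Gata2 Apoe cells the median of the list was -0.06 and 1 gene was higher and none lower in every pool. The limit on Ermap and Car1, set for gated cells only, bears on this comparison and on that of heme genes below.

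**Figure D1:**
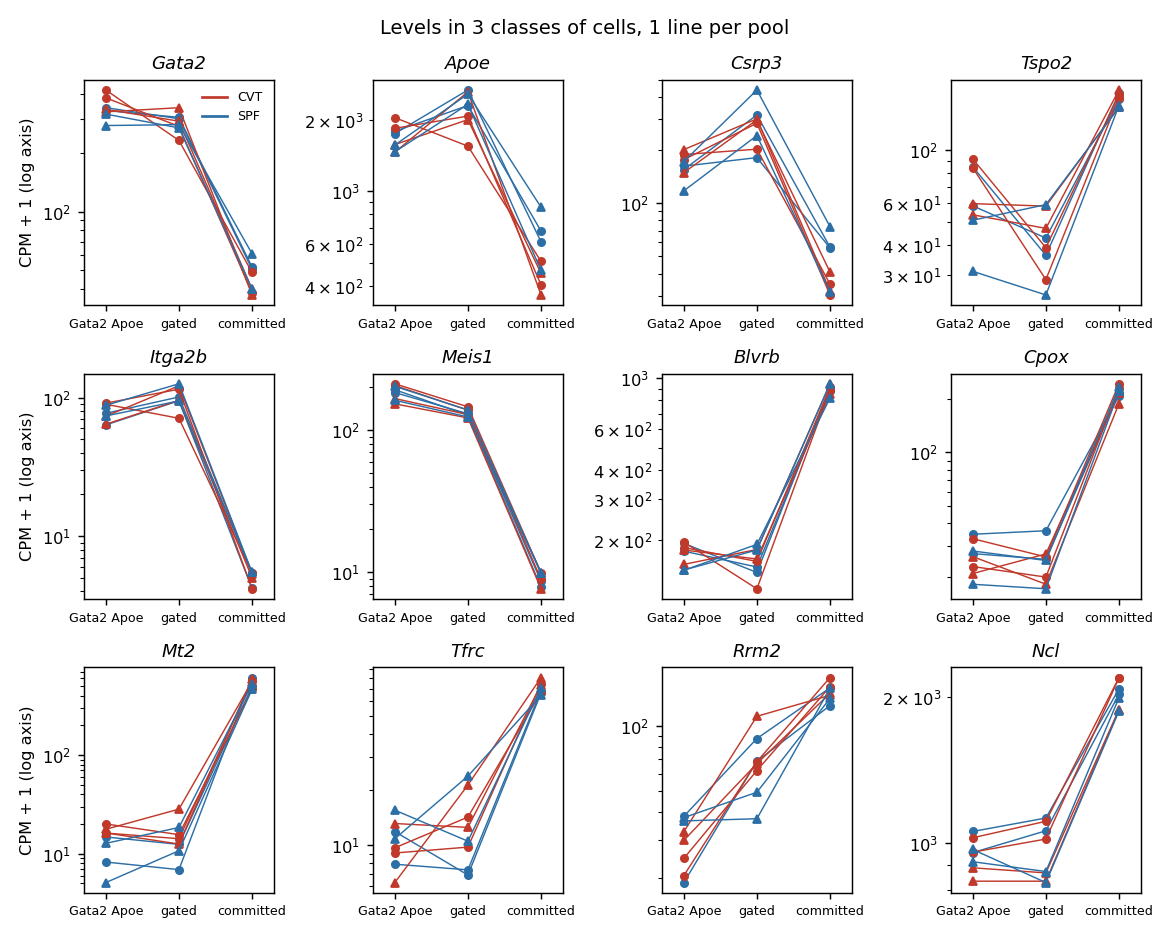
Levels of 12 genes in Gata2 Apoe, gated and committed cells (y axis: CPM plus 1, log scale), with 1 line per pool, red for CVT and blue for SPF, circles for pools 1 to 4 and triangles for pools 5 to 8. Blvrb, Cpox, Mt2 and Tfrc stayed near the level of Gata2 Apoe cells in gated cells, Gata2, Itga2b and Meis1 were far above the committed level, and Csrp3 was highest in gated cells.

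Heme synthesis and iron uptake genes showed the same order. Of 17 measured genes (21 listed), 13 were below committed cells in 8 of 8 pools and 2 above (median -1.26), while against Gata2 Apoe cells none stood apart in every pool (median 0.05). Cpox, the enzyme that forms protoporphyrinogen, was at 23.3 ± 6.11 CPM against 218 CPM in committed and 25.3 CPM in Gata2 Apoe cells. Blvrb, a biliverdin reductase, was at 162 ± 22.4 CPM against 892 and 173 CPM, and Tfrc, the transferrin receptor, at 12.2 ± 6.18 CPM against 69.9 and 9.51 CPM. Epor, the erythropoietin receptor, was at 23.2 ± 5.60 CPM, against 85.1 in committed and 18.5 CPM in Gata2 Apoe cells. These values are means and SD over 8 pools.

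Early erythroid associated genes split in 2 directions. Of 16 measured, 9 were below committed cells in every pool, among them Mt2 and Mt1, metallothioneins that bind metal ions (13.9 against 531 CPM and 116 against 949 CPM), Sphk1, a sphingosine kinase (2.20 against 156 CPM), and Asns, an asparagine synthetase (11.7 against 135 CPM). Apoe, an apolipoprotein, was higher instead (2258 ± 377 CPM against 543 CPM), as was Muc13, a membrane mucin (149 ± 27.0 against 33.0 CPM). Apoe also exceeded its level in Gata2 Apoe cells (1684 CPM) in 7 of 8 pools, although those cells had been required to hold it and the gated cells had not.

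Regulators of the stem and progenitor stage were still high. Gata2 was at 285 ± 31.7 CPM, with 340 CPM in Gata2 Apoe cells and 44.9 CPM in committed cells. Gata1 was below Gata2 in the gated cells (171 ± 15.7 CPM of Gata1) and above it in committed cells (126 CPM of Gata1). Gated and committed cells had both been required to hold Gata1, and they differed in depth. The level of Gata1 and its order against Gata2 are therefore a description and support nothing. Both genes are counted at the 3' end, so their CPM compares them per transcript and not per length. Meis1, a homeobox factor of stem cells, was at 131 ± 8.26 CPM against 184 and 8.09 CPM. Fli1, an Ets factor that favours megakaryocytes, was at 54.6 ± 9.42 CPM against 67.9 and 6.96 CPM, and Spi1, the myeloid factor PU.1, at 99.5 ± 21.9 CPM against 91.7 and 12.3 CPM. Of the 21 measured erythroid regulators, 10 were above and 4 below committed cells in all pools, and 2 above and 2 below Gata2 Apoe cells, where 5.52% of all measured genes were higher and 4.55% lower in all pools. Klf3, a repressor that Klf1 is known to induce, was at 15.3 ± 5.56 CPM against 56.7 CPM in committed and 21.2 CPM in Gata2 Apoe cells.

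Stem cell markers were lower than in Gata2 Apoe cells. All 6 measured were below Gata2 Apoe cells in 8 of 8 pools, with a median difference of -1.43. Ly6a, which encodes Sca-1, was at 4.71 against 38.8 CPM and Hlf, a stem cell factor, at 17.9 against 90.6 CPM. Megakaryocyte genes were close to Gata2 Apoe cells (median -0.09 over 8 measured genes) and exceeded committed cells (median 2.87). Itga2b, the integrin CD41, was at 102 ± 17.9 CPM against 76.7 CPM in Gata2 Apoe cells, 4.06 CPM in committed cells and 307 CPM in Pf4 cells.

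**Figure D2:**
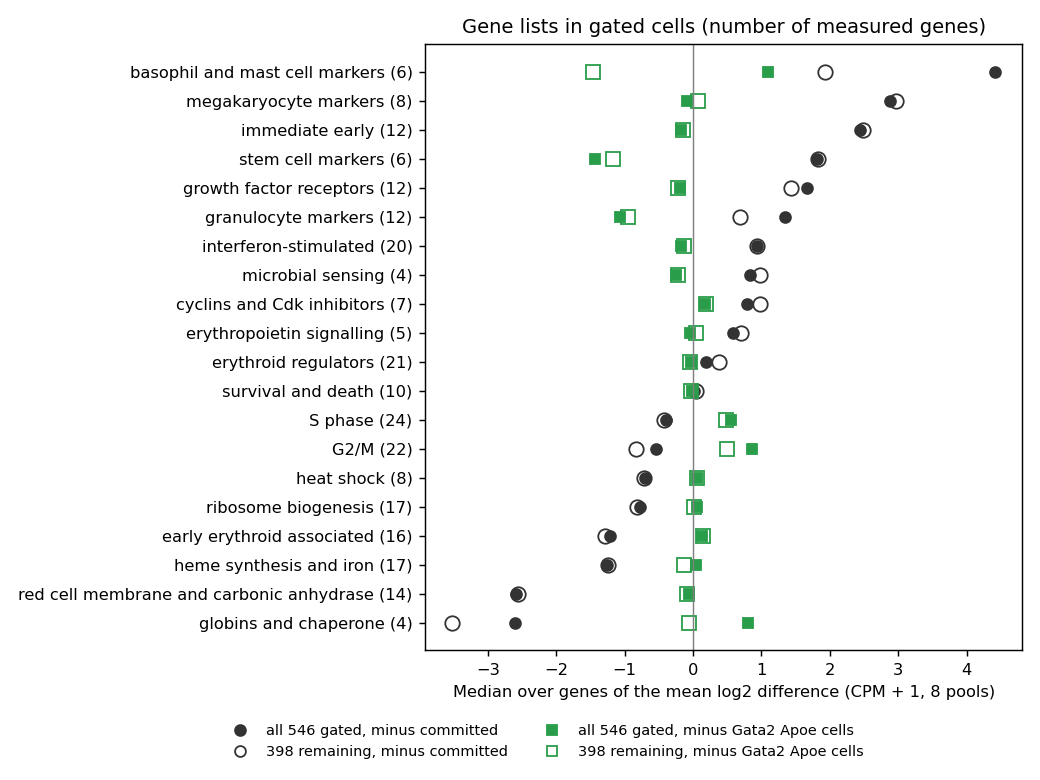
Median over the measured genes of each list (number in brackets) of the mean log2 difference over 8 pools (x axis, CPM plus 1), with black circles for gated minus committed cells and green squares for gated minus Gata2 Apoe cells. Filled marks are all 546 gated cells, and open marks are the 398 under the limits for basophil, azurophil and globin UMIs given below. Heme and red cell membrane lists lie far below committed cells and near 0 against Gata2 Apoe cells. The open marks of the basophil, granulocyte and globin lists are affected by the choice of cells itself.

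Genes of the cell cycle were higher than in Gata2 Apoe cells. Of 24 S phase genes, 15 were above Gata2 Apoe cells in 8 of 8 pools (median 0.55) and 10 were below committed cells (median -0.40). Of 22 G2/M genes, 9 were above Gata2 Apoe cells and 6 below committed cells (medians 0.86 and -0.54), the latter a share near the 24.7% of all measured genes. Rrm2, a subunit of ribonucleotide reductase, was at 67.9 ± 22.3 CPM against 28.9 CPM in Gata2 Apoe cells and 143 CPM in committed cells, and Mki67, a marker of proliferating cells, was at 126 ± 26.3 CPM against 62.9 and 178 CPM. Ribosome biogenesis genes stayed nearer to Gata2 Apoe cells, where 4 of 17 were higher and 1 lower in every pool, while 16 were below committed cells. Ncl, which encodes nucleolin, was at 963 ± 126 CPM against 949 and 2010 CPM. Of 12 immediate early genes, 11 were above committed cells in every pool (median 2.44), while against Gata2 Apoe cells none was higher and 3 were lower in every pool. Fos ranged from 80.6 to 439 CPM among pools, and Jun from 124 to 931 CPM, so these 2 stress-responsive genes varied more between pools than the regulators did.

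Genes of other lineages were present. The 8 genes highest above both neighbouring classes in all pools, with at least 50 CPM, were Mpo, Ctsg and Ms4a3 of granulocytes, Fcer1a, Ms4a2 and Hdc of basophils and mast cells, and Ap3s1 and Cst7. None of them is an erythroid gene, but Gata2 Apoe cells had been limited to 2 Mpo UMIs and the gated cells had not, which bears on the rank of Mpo and of genes expressed with it. Ms4a2 and Fcer1a encode chains of the IgE receptor and Hdc the enzyme that makes histamine. Ms4a2 was at 138 ± 58.4 CPM against 39.5 CPM in Gata2 Apoe and 0.995 CPM in committed cells. Cpa3, a mast cell and basophil protease, was at 248 ± 77.3 CPM against 129 and 4.90 CPM. The summed basophil and mast cell list (8 genes, Tpsb2 at 0) ranged from 286 to 1856 CPM in CVT pools and from 316 to 618 CPM in SPF pools.

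Limits chosen after these values were seen separated cells by genes of other lineages. At least 5 UMIs of Cpa3, Ms4a2, Fcer1a, Mcpt8, Prss34 and Gzmb together were held by 113 of the 546 cells (20.7%), with 56 further cells at 3 or 4 UMIs and 38 at 5 to 7. In committed cells that share was 0.159% and in Gata2 Apoe cells 8.44%. A further 32 cells (5.86%) had at least 20 UMIs of Elane, Mpo, Prtn3 and Ctsg without reaching the first limit, of 66 gated cells (12.1%) at that azurophil limit in all, and 3 cells had at least 50 globin UMIs. The remaining 398 cells (72.9%) are called remaining cells. By pool the remaining cells made up 72.0% to 80.6% of gated cells in SPF pools and 62.5% to 74.1% in CVT pools.

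**Figure D3:**
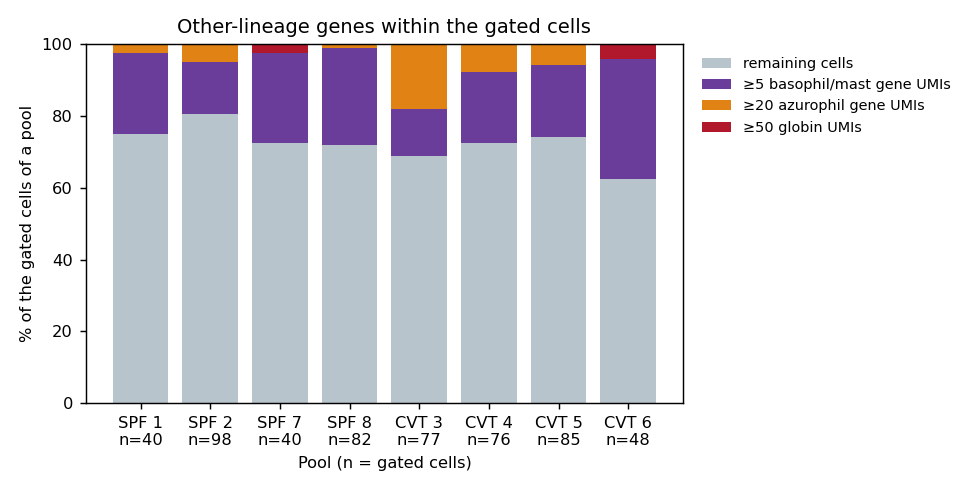
Gated cells of each pool (x axis, with their number) divided by genes of other lineages (y axis: percent of the gated cells of a pool). Cells with basophil and mast cell genes were present in all 8 pools, at 12.99% to 33.3%, and cells with azurophil granule genes but under the basophil limit reached 18.2% in CVT pool 3 and were absent from CVT pool 6 and SPF pool 7.

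The cells with basophil and mast cell genes had the highest Csrp3. It was at 527 CPM there, in 82 of 113 cells, against 211 CPM in the remaining cells, so the marker was not particular to the remaining cells. Tspo2 went the other way, at 18.6 CPM against 53.4 CPM, as did Epor (10.2 against 32.0 CPM) and Aqp1, a water channel of red cells (27.9 against 135 CPM). Lmo4, a LIM-only cofactor, was at 706 CPM, Ikzf2, an Ikaros family factor, at 268 CPM and Cebpa, a myeloid factor, at 100 CPM in these cells. Gata2 was alike in both (326 and 310 CPM). The azurophil cells were deeper (median 16324.5 UMIs) and had little Gata2 (37.4 CPM), Apoe (187 CPM) or Csrp3 (16.8 CPM). Of these 32 cells, 27 had 1 UMI each of Klf1 and Gata1, the lowest level that the gate allowed. The highest scores of Scrublet, a doublet caller, included 5 of these 32 cells and 15 of the 398 remaining cells. They also included 2 of the 113 cells with basophil and mast cell genes and 1 of the 3 globin cells. The part of free RNA and of doublets in the azurophil cells was not tested.

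Only 3 cells held 90.6% of the globin UMIs of all gated cells. There were 2 in CVT pool 6 and 1 in SPF pool 7, and they also held Slc4a1, the band 3 anion exchanger, at 684 CPM and Alas2, the erythroid enzyme that starts heme synthesis, at 563 CPM, compared with 0.449 and 0 CPM in the other gated cells. Hbb-bs, a beta globin, was at 10.8 CPM in the remaining cells of pools 1 to 4 and 164 CPM in those of pools 5 to 8, against 152 and 1345 CPM in committed cells (means of 4 pools).

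The remaining cells were chosen by their basophil, azurophil and globin UMIs, while the comparison classes were not filtered in this way, so those lists are not compared here. The heme list was at -1.24 and the red cell membrane list at -2.55 against committed cells, close to the values over all gated cells. The S phase and G2/M lists stayed above Gata2 Apoe cells, at medians of 0.48 and 0.50, with 8 and 2 genes higher in every pool, beside 176 of all 5847 measured genes. Csrp3 was above Gata2 Apoe cells in 6 of 8 pools and Epor in 8 of 8 (mean log2 differences 0.39 and 0.70). Apoe, Itga2b and Nkg7, a granule protein of cytotoxic and myeloid cells, were above Gata2 Apoe cells in 8 of 8 pools (mean log2 differences 0.59, 0.50 and 0.47).

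Among gated cells thinned to 2759 UMIs, some erythroid genes were higher where Klf1 or Car1 was higher, and others were not. Cells with 1 Klf1 UMI had Tspo2 at 37.1 CPM (38 UMIs), those with 2 or 3 at 76.1 CPM (34 UMIs), and the 13 cells with 4 to 7 at 167 CPM (6 UMIs). Blvrb went from 149 to 226 and 530 CPM over the same bins and Car2, the carbonic anhydrase shared by red cells and others, from 618 to 700 and 1087 CPM. Gata1, also in the gate, went down from 214 to 195 and 83.6 CPM, with 3 UMIs in the last bin. Epor (21.5, 44.7 and 27.9 CPM), Aqp1 (103, 148 and 112 CPM) and Muc13 (150, 166 and 83.6 CPM) did not follow Klf1. Apoe was at 2419, 2495 and 2454 CPM, and the share of cells with basophil and mast cell genes was 21.3%, 19.1% and 23.1%. By Car1, Tspo2 was at 39.6, 60.4 and 74.7 CPM in cells with 0, 1 and 2 UMIs and at 158 CPM in the 248 cells just outside with 3 to 5. Car2 did not follow Car1, at 663, 655, 624 and 661 CPM over the same bins. Cpa3 went down from 296 to 204, 120 and 97.9 CPM, and the share of cells with basophil and mast cell genes was 24.2%, 16.7%, 16.5% and 5.24%. These are sums over cells of 7 or 8 pools with no test.

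Housing was then compared over pools, a contrast the gate did not use. Gated cells made up 2.12%, 2.55%, 1.94% and 1.81% of cells in SPF pools 1, 2, 7 and 8, and 1.59%, 1.82%, 1.96% and 1.14% in CVT pools 3, 4, 5 and 6. The CVT pools were lower on average, but pools 4 and 5 lay within the SPF range. The means were 1.63% ± 0.357 (SD, n = 4) for CVT and 2.10% ± 0.323 (SD, n = 4) for SPF, a difference of -0.476 percentage points (exact permutation test, two-sided, p = 0.143; smallest possible p = 0.0286). Within pools 1 to 4 the means were 1.70% and 2.33%, and within pools 5 to 8 they were 1.55% and 1.87%; permuting within each set gave an exact p = 0.167. For thinned cells the difference was -0.0347 points (exact permutation p = 0.971), with CVT higher than SPF within pools 5 to 8 (0.784% and 0.635%), although only 125 of the 239 cells chosen were gated at full depth. At full depth and without CVT pool 6 the difference was -0.314 points.

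**Figure D4:**
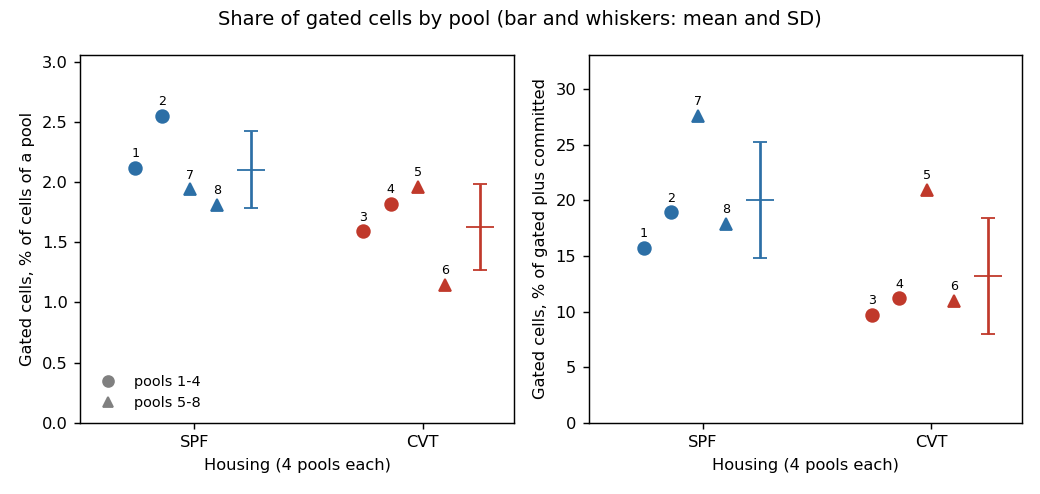
Gated cells as a percent of the cells of a pool (left) and of gated plus committed cells (right), by housing, with 1 point per pool (number above it; circles pools 1 to 4, triangles pools 5 to 8) and the mean and SD of 4 pools beside them. CVT pools lie lower on average in both panels, and CVT pool 5, at 20.9%, lies among the SPF pools on the right.

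Several alternative settings were tried for the share of gated cells, whose main setting gave an exact permutation p = 0.143. No adjustment was made for their number, and with Car1 at 0 UMIs the CVT pools were lower. Cells with no Car1 UMI were 0.787% ± 0.116 (SD, n = 4) of CVT and 1.26% ± 0.0946 (SD, n = 4) of SPF cells with no overlap of the pools (0.643% to 0.898% and 1.147% to 1.38%; exact permutation p = 0.0286, the smallest possible). Cells with 2 Car1 UMIs were 0.355% ± 0.137 and 0.266% ± 0.0999, without a test. A count of 0 UMIs depends on depth. The median depth of gated cells was 8052, 8175, 7774 and 6818.5 UMIs in CVT pools 3 to 6. In SPF pools 1, 2, 7 and 8 it was 6715, 7032.5, 7014.5 and 6411 UMIs, and the part of depth was not tested. In the granule cells used to gauge free RNA, Car1 had a UMI in 56.4% ± 16.9 of CVT and 41.7% ± 16.4 of SPF cells (SD, n = 4), and committed cells were 11.5% ± 3.70 of CVT and 8.93% ± 2.90 of SPF cells; their part in the share of Car1-free cells was not tested. Of gated plus committed cells, gated cells were 15.7%, 18.9%, 27.6% and 17.9% in SPF pools 1, 2, 7 and 8 and 9.72%, 11.2%, 20.9% and 10.96% in CVT pools 3 to 6. The means were 20.01% ± 5.22 and 13.2% ± 5.20 (SD, n = 4 each), a difference of -6.82 points (exact permutation p = 0.114), and the groups overlapped through CVT pool 5. Without it the difference was -9.39 points with no overlap (exact permutation p = 0.0571), and without SPF pool 7 it was -4.29 points.

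No gene passed the test for housing within the gated cells. In edgeR's quasi-likelihood test with Benjamini-Hochberg adjustment, 0 of 6130 genes (0%) had an adjusted p under 0.05, with 178 higher and 140 lower in CVT at an unadjusted p under 0.05, and DESeq2 also called 0. Without CVT pool 6 Ctsg alone was called, and without SPF pool 7 Rnase12 alone (edgeR adjusted p = 0.00931 and 0.0265). The pools of the 2 groups did not overlap for 197 genes (3.21%). Klf1 was at 0.07 lower and Gata1 at 0.10 lower on the log2 scale in CVT, with standard errors of 0.13 and 0.12, and Csrp3 (-0.03 ± 0.21 SE) and Tspo2 (0.21 ± 0.28 SE) differed by less than their standard errors. Gata2 was at 283 ± 45.3 CPM in CVT and 287 ± 16.8 CPM in SPF pools (SD, n = 4), and Apoe at 2058 ± 437 and 2459 ± 182 CPM.

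The genes with the lowest p and no overlap of pools are given as values only. Rbm3, a cold-inducible RNA binding protein, was at 1031 ± 134 CPM in CVT and 763 ± 78.9 CPM in SPF pools (log2 difference 0.50 ± 0.12 SE, edgeR adjusted p = 0.809). Rps12, a ribosomal protein, was at 4055 ± 356 and 3455 ± 131 CPM (0.30 ± 0.08 SE, edgeR adjusted p = 0.809). Cd53, a leukocyte tetraspanin, Ccl4, a chemokine, and Spata24 were the other 3 higher in CVT, at 54.4 against 31.9, 32.5 against 8.67 and 53.6 against 28.0 CPM. Setd6, a lysine methyltransferase, was lower (8.33 ± 0.675 against 27.4 ± 9.52 CPM, 72 UMIs in all, edgeR adjusted p = 0.809), followed by Ska2, of the kinetochore, Hist1h4d, a histone, Mta3 and Usp15, a deubiquitinase. All 5 had a mean of 42.4 CPM or less over the CVT pools. In the remaining cells Cd53 went the other way, at a mean of 9.90 CPM in CVT and 17.1 CPM in SPF pools. The means of the other genes named here kept their direction there, with Ccl4 at 25.5 and 4.68 CPM. The pools of the groups overlapped in the remaining cells for Cd53, Ccl4, Mta3 and Usp15. The part of the cells left out in the value of Cd53 was not tested.

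By list, no erythroid gene was called for housing. None of the 21 regulators, 14 heme and iron genes and 13 early erythroid associated genes tested was called, and their median log2 differences were -0.06, 0.06 and -0.12 beside 0.00 over all genes. The red cell membrane list had a median of -0.25 with 4 of 6 lower, and the globin list, of whose UMIs 3 cells held 90.6%, a median of 2.62 with 4 of 4 higher, again with no gene called. S phase genes had a median of 0.23 with 20 of 23 higher in CVT, G2/M genes -0.16 with 16 of 20 lower, and immediate early genes 0.30 with 12 of 12 higher, all with no gene called. Over all genes tested, 3096 of 6130 were higher in CVT. The direction did not hold in both pool sets for every immediate early gene. Fosb was at 224 CPM in CVT and 86.4 CPM in SPF within pools 1 to 4, but at 51.0 and 70.4 CPM within pools 5 to 8. Of 18 interferon-stimulated genes 8 were higher and 10 lower (median -0.03), and of 5 microbial sensing genes 2 and 3. Of 12 granulocyte markers 5 were higher and 7 lower (median -0.61). Among them Ctsg, a granule protease, had a log2 difference of 1.17 ± 0.31 SE (edgeR adjusted p = 0.809), and cells with azurophil genes under the basophil limit made up 7.99% ± 7.58 of CVT and 2.21% ± 2.18 of SPF gated cells (SD, n = 4); the part of these cells in the value was not tested. Aqp1 was at 74.4 ± 18.2 CPM in CVT and 126 ± 30.7 CPM in SPF pools, with an edgeR adjusted p = 0.939.

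Whether housing acted differently on gated and committed cells was tested as an interaction with pool as a block. Of 8540 genes 0 (0%) were called by edgeR, with 313 and 160 at an unadjusted p under 0.05 in the 2 directions. The lowest adjusted p was that of Plac8, a small cysteine-rich protein of myeloid progenitors (0.129). Plac8 was at 3285 ± 352 CPM in CVT and 2807 ± 261 CPM in SPF gated cells (SD, n = 4), and at 398 and 441 CPM in committed cells. Its pools overlapped in gated cells, at 2799 to 3604 CPM in CVT and 2489 to 3127 CPM in SPF. Rasgrp2, an exchange factor for Rap1, was at 133 and 106 CPM in gated and 18.3 and 24.4 CPM in committed cells (edgeR adjusted p = 0.254). Setd6, at 8.33 and 27.4 CPM in gated cells, was at 31.0 and 29.8 CPM in committed cells (edgeR adjusted p = 0.254). In the remaining cells Plac8 was at 2394 CPM in CVT and 2266 CPM in SPF pools, and Rasgrp2 at 102 and 96.9 CPM. Setd6 was at 7.40 and 31.0 CPM there. Plac8 was called without SPF pool 1 and, with Tyrobp and Rasgrp2, without CVT pool 6, where Hbb-bs and Hba-a2 were called in the other direction. Retnlg alone was called without CVT pool 5 and Ifitm1 alone without SPF pool 7. The ribosomal protein genes Rps4x and Rpl36a had differences of 0.18 and 0.20 on the log2 scale.

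The 2 sets of pools differed more than the 2 housing groups did in number of genes called. With housing as a covariate, 32 of 6130 genes (0.522%) were called when pools 1 to 4 were compared with pools 5 to 8, 23 higher and 9 lower in the latter, and DESeq2 called 22 and 6. Without SPF pool 8 the counts were 38 and 27, and without CVT pool 3 only 2 were lower. The pools of the sets did not overlap for 5.2% of the genes tested. Genes of late neutrophil granules and globins were higher, while primary granule enzymes were lower. Of 12 granulocyte markers tested, 7 were higher (S100a8, S100a9, Ltf, Camp, Ngp, Lyz2 and Retnlg) and 4 lower (Elane, Mpo, Prtn3 and Ctsg), and 4 of 4 globins were higher. None of the 21 erythroid regulators, 14 heme genes or 4 markers was called, although the markers Klf1 and Gata1 are bound by the gate.

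Few cells held most of the S100a8 and globin UMIs. S100a8, a subunit of the neutrophil protein calprotectin, was at 318, 360, 247 and 215 CPM in pools 1 to 4 and at 2768, 515, 4835 and 2655 CPM in pools 5 to 8 (log2 difference 3.21 ± 0.30 SE, edgeR adjusted p = 8.78e-07). In pools 5, 7 and 8, 5 gated cells with 250 to 1341 S100a8 UMIs held 78.1%, 89.7% and 84.8% of the S100a8 UMIs of the gated cells. The median S100a8 count of a gated cell was between 2 and 2.5 UMIs in pools 1 to 4 and between 2.5 and 4 in the other pools, and that of a committed cell between 4 and 6 and between 8 and 11. Without these 5 cells and the 3 globin cells the difference was 0.93 for S100a8 and 4.19 for Hbb-bs, both still called, and for Ngp, another granule protein, it was 0.75 and no longer called (edgeR adjusted p = 0.130). These cells had been chosen for their S100a8 and globin UMIs, so a smaller difference in those genes follows from the choice. The primary granule enzymes changed little in that fit, with Mpo at -1.29 and Elane at -1.79 against -1.33 and -1.85. In all, 15 genes were higher and 12 lower.

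**Figure D5:**
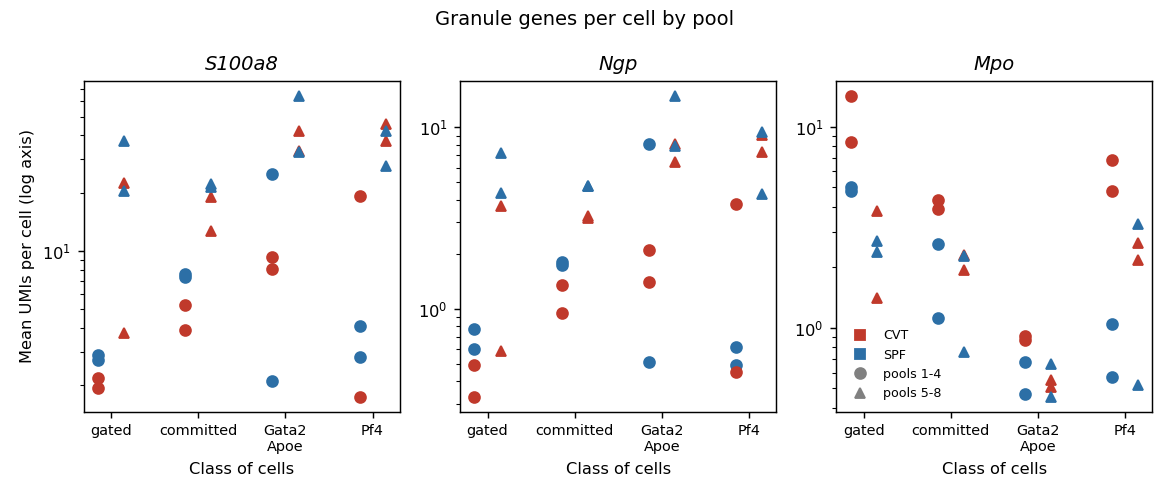
Mean UMIs per cell (y axis, log scale) of S100a8, Ngp and Mpo in gated, committed, Gata2 Apoe and Pf4 cells, with 1 point per pool, red for CVT and blue for SPF, circles for pools 1 to 4 and triangles for pools 5 to 8. S100a8 was higher in pools 5 to 8 in committed cells too, at 12.8 to 22.2 UMIs per cell against 3.89 to 7.63, and Mpo in gated cells reached 14.2 in CVT pool 3.

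Some of these genes, but not all, differed in the same direction in other classes. Committed cells held 6.03 S100a8 UMIs per cell in pools 1 to 4 and 18.9 in pools 5 to 8, and Gata2 Apoe cells 11.2 and 42.9. Hbb-bs was at 0.0529 UMIs per Gata2 Apoe cell and 1.13, and at 0.0720 and 16.2 per gated cell. Mpo was at 929 CPM in pools 1 to 4 and 329 CPM in pools 5 to 8 over all gated cells (edgeR adjusted p = 5.38e-04), and at 154 and 85.8 CPM in the remaining cells. Elane was at 629 and 164 CPM over all gated cells and at 100.5 and 63.6 CPM in the remaining cells. Over all gated cells its pools overlapped, with 100 CPM in pool 1 and 61.4 to 396 CPM in pools 5 to 8. Fosb, an immediate early factor, was lower on average in pools 5 to 8 (60.7 against 155 CPM, edgeR adjusted p = 0.0313), with 54.2 against 183 CPM in the remaining cells. Its pools overlapped too, with 38.3 CPM in pool 1 and 34.6 to 74.4 CPM in pools 5 to 8. Cpa3 was higher (log2 difference 0.71, edgeR adjusted p = 0.0169), with 78.9 CPM in pools 1 to 4 and 76.2 CPM in pools 5 to 8 in the remaining cells and 0.836 and 0.782 UMIs per Gata2 Apoe cell, as was Ifitm1, an interferon-induced membrane protein (0.71, edgeR adjusted p = 0.0310). The part of free RNA and of other cells in these values was not tested.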

How the data were processed

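Cells of 8 pools of mouse bone marrow were sorted and sequenced with the 10x 3' v2 chemistry. The raw UMI counts per gene and cell were made and deposited by the authors with Cell Ranger and build mm9, per the submitters' processing notes; the Cell Ranger version is not given in the sources used here. Totals were 19041749 to 59812346 UMIs per pool, and intervals cover counting error only. A cell's pool is the number that ends its name, taken as the number in the sample description; cell counts alone do not settle this. The labels do not say that pools were prepared separately, so p-values measure the spread between pools.

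UMIs of the gated cells were summed per pool and tested with edgeR 4.0.16 (filterByExpr, TMM, quasi-likelihood, Benjamini-Hochberg; R 4.3.3), with DESeq2 1.42.0 as an alternative; shares were tested by exact permutation over 70 regroupings of the pools. Levels are CPM, and log2 differences use CPM plus 1. The scripts were tested on simulated data. Scrublet (scanpy 1.11.5) called 92 of 29891 cells (0.308%), too few to be trusted, so doublets were kept, and leaving out the 965 highest scores was tried.

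The members and gene lists were chosen with earlier results of these data known. Genes were named by rule: the gate genes and markers; called genes, up to 10 in a direction by fold; where fewer than 5 were called, up to 5 of lowest p without overlap of pools; up to 6 members of each list by difference from either class; and the 8 genes farthest from committed cells in each direction or above both classes. Genes named for the parts of the gated cells, for the cells left out and from the lists in the fits were chosen after their values were seen, as were the limits for other-lineage cells. Results for some named genes are not reported here.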

Additional observations from a re-analysis of the deposited data

Results flagged for a closer look

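In 5 of 48 groups of 4 pools that were examined, 1 pool lay far from the others by Dixon's criterion, which chance meets in about 1 of 20 groups. Gated cells were 20.9% of gated plus committed cells in CVT pool 5, where the nearest CVT pool had 11.2%. Setd6 was at 7.32 CPM in CVT pool 4, where the nearest had 8.61 CPM. Elane was at 665 CPM in SPF pool 2, where the nearest SPF pool had 122 CPM. Hbb-bs was at 7435 CPM in CVT pool 6 and 1151 CPM in SPF pool 7, where the nearest pools of their groups had 106 and 161 CPM; these are the pools that held the 3 cells with at least 50 globin UMIs.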

How the results depend on the processing

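Of the shares and counts of genes, 94 values under an alternative kept their direction and side of the threshold or stayed within 1.5 times. A further 20 counts of genes moved by more than 1.5 times or from 0, and 2 shares crossed the threshold. A share was taken as kept by its sign and side of the threshold alone. The thinned share of gated cells, at -0.0347 against -0.476 points, was therefore among those kept. The difference in the share of gated cells reached p = 0.0286 by exact permutation with Car1 at 0 (-0.477 points), and that in the share of erythroid cells with at least 2 UMIs of Klf1 and Gata1 (-2.49 points). The latter rests on 50 gated cells, with 1 to 12 in a pool. Without a filter on low counts, 29 genes were higher and 14 lower by housing, 13 and 4 in the interaction and 46 and 35 between pool sets. With thinned cells 1 gene was higher by housing. Leaving out each pool gave 0 to 1 genes higher by housing, 0 to 3 higher and 0 to 2 lower in the interaction, and 17 to 38 higher and 2 to 27 lower between pool sets. As alternatives chosen after seeing the data, leaving out the 8 cells gave 15 higher between pool sets. Leaving out all cells at the basophil, azurophil or globin limits or with many S100a8 UMIs gave 10 higher and 4 lower, with Elane no longer called. In the remaining cells the globin list was at -0.056 and the basophil and mast cell list at -1.46 against Gata2 Apoe cells, having been at 0.80 and 1.10. This follows from the choice of the cells left out, since Gata2 Apoe cells were not filtered alike. The cause was not tested for the other changes. No paired analysis was possible because replicate numbers were given in accession order and mark no shared animal, litter or day; with pool set as a block 0 genes were called by housing. Depth limits the gate, since most gated cells held 1 UMI of Klf1 or Gata1.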
